A study of Ovis aries with 16 samples.

Results

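NPC, the cells grown from the nucleus pulposus, were compared with AFC, the cells grown from the annulus fibrosus, in young sheep. The comparison took every library that its label gave as young, 4 of NPC and 4 of AFC, or 8 of the 16 libraries of the series. The same 4 lambs gave both cultures, so that each lamb, called Y1 to Y4 in the order of the animal identifiers, formed an NPC and AFC pair. The lambs were females of the Vendée breed aged 6 months and carried no treatment or genetic change in the labels. For each lamb, 5 lumbar discs were used, the nucleus and the annulus were separated, and the cells were grown in medium with serum and sequenced at passage 1. A library is therefore a pool of the discs of an animal and of cells selected by growth on plastic. The other 8 libraries came from NPC and AFC of 4 untreated female sheep aged 7 to 8 years, called O1 to O4, which were handled alike and served here for comparison.

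The nucleus pulposus is the gelatinous core of the intervertebral disc, rich in aggrecan and type II collagen, and it derives from the notochord. The annulus fibrosus is the lamellar ring around it, rich in type I collagen, and it derives from the sclerotome. Cells of either tissue lose part of their tissue character when they are expanded in monolayer. The deposited table gives genes by Ensembl identifier only, and the symbol table used here held 0 of these identifiers. The labels NPC and AFC could therefore not be checked against markers of nucleus, notochord, annulus, endplate cartilage, blood or vessel cells, and these were not analysed here. In bulk RNA from a culture, fewer cells of a type and less RNA per cell cannot be told apart.

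The deposited values were raw counts of reads per gene, and each young library held between 28782526 (NPC of Y4) and 50874478 (NPC of Y3) of them. Between 18219 and 19133 genes had a read in a young library, while its 10 largest genes made up from 17.7% to 22.6% of its counts. AFC of Y2 had the highest of these shares, and AFC of Y4 came next with 20.0%. Levels are given below as CPM, read counts scaled by library size, after TMM normalisation, which scales libraries so that most genes do not differ. They are not divided by gene length, so that they compare samples for a gene and not genes with each other. Of 30722 genes in the table, 15521 passed edgeR's low-count filter and were tested.

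The first question was how the 8 transcriptomes were arranged by lamb and by tissue. On the 500 most variable genes, the second principal component, with 20.5% of the variance, placed NPC above AFC by 28.0 units in Y1, 27.4 in Y2, 28.1 in Y3 and 27.3 in Y4. The distance between both cultures of a lamb along this axis was thus nearly the same in every lamb. The groups did not overlap on it, with NPC of Y4 as the lowest NPC library at 4.36 and AFC of Y3 as the highest AFC library at 2.32. The first component, with 33.8% of the variance, did not order the tissues. Along it, NPC minus AFC was -1.61 in Y1, 19.5 in Y2, -26.3 in Y3 and -27.0 in Y4. AFC of the 4 lambs lay at -18.4, -28.7, 31.4 and 33.5 on that axis, and NPC lay between -20.0 and 6.51. The AFC cultures thus spread more widely than the NPC cultures along this component. Over all 15521 genes, the lamb took 51.0% of the sum of squares of log2 CPM with 3 degrees of freedom, the tissue 16.9% with 1, and the remainder 32.1% with 3. Per degree of freedom, lamb and tissue were alike, at 1.59 and 1.58 times the remainder.

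**Figure D1:**
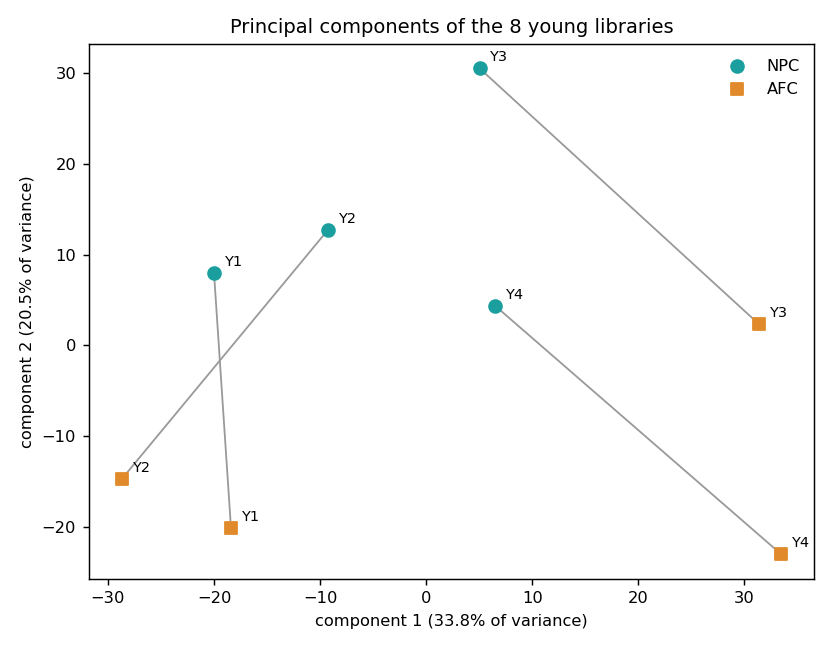
First and second principal components of log2 CPM for the 8 young libraries (500 most variable genes). Circles are NPC, squares are AFC, and a line joins both cultures of a lamb. NPC lies above AFC by 27.3 to 28.1 units in each of the 4 lambs, and AFC spreads from -28.7 to 33.5 along the first component.

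Distances between libraries showed the wide spread of AFC but not a separation by tissue. The distance was the root mean square difference of log2 CPM over the genes tested. NPC of different lambs lay between 0.61 and 0.746 apart (mean 0.688 over 6 pairs), and AFC of different lambs between 0.674 and 1.05 (mean 0.875 over 6 pairs). AFC of Y1 and Y2 were 0.687 apart and AFC of Y3 and Y4 were 0.674 apart, while each of the other AFC pairs was at least 0.859 apart. NPC and AFC of the same lamb were 0.603 apart in Y1, 0.888 in Y2, 0.721 in Y3 and 0.751 in Y4. Their mean of 0.741 was lower than the mean of 0.837 between NPC and AFC of different lambs. Against the 24 ways of pairing the cultures, this difference did not pass the threshold (exact permutation test, two-sided, p = 0.0833, where the smallest possible p is 0.0417). It reached that smallest p on the 500 most variable genes and with a prior count of 0.5, and p was 0.167 on genes with a mean count of at least 50.

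The second question was which genes differed between NPC and AFC across the 4 lambs. In edgeR's quasi-likelihood fit, which estimated the spread between animals from all 16 libraries, 2 of 15521 genes differed (0.0129%) at a Benjamini-Hochberg adjusted p under 0.05, both higher in AFC. At an unadjusted p under 0.05 there were 946 genes, of which 458 were higher in NPC and 488 in AFC. In edgeR with a term for the animal (the replicate block), 0 genes passed, and 1044 had an unadjusted p under 0.05. limma-voom called 5 genes (0.0322%), 2 higher in NPC and 3 higher in AFC. DESeq2's Wald test, the tool of the study, called 113 of 15501 genes (0.729%), of which 62 had more in NPC and 51 had more in AFC. With the animal as a block, DESeq2 called 238 genes (1.53%), 147 higher in NPC and 91 in AFC. The 2 DESeq2 lists shared 94 genes, which was 83.2% of the shorter list and 39.5% of the longer. Both genes called by edgeR and all 5 called by limma-voom were among the 113. The number of genes called thus ranged from 0 to 238 with the tool and the block.

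**Figure D2:**
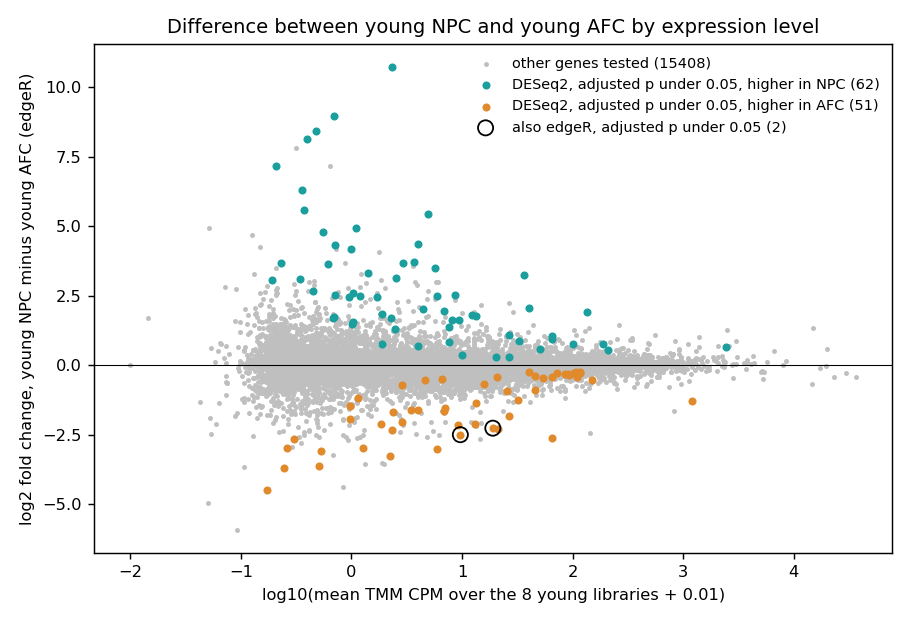
Log2 fold change of young NPC over young AFC from edgeR (vertical axis) against mean CPM of the 8 young libraries (horizontal axis, log10), for each of 15521 genes. Coloured points are the 113 genes called by DESeq2 (62 higher in NPC, 51 higher in AFC) and the 2 rings are the genes that edgeR also called, both higher in AFC.

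By a rule on the smallest p in each direction, 4 genes were described in full. ENSOARG00020025065 was the gene with the smallest p among those higher in AFC. Its level in NPC was 3.98, 2.92, 1.39 and 3.31 CPM in Y1 to Y4, and in AFC of the same lambs it was 23.0, 16.4, 12.6 and 13.6 CPM. Each AFC library was above every NPC library, and both cultures were at their lowest in Y3. The means were 2.90 ± 1.10 CPM in NPC and 16.4 ± 4.70 CPM in AFC (SD, n = 4). The log2 fold change of NPC over AFC was -2.50 (SE 0.35), with an adjusted p of 0.0415 in edgeR and of 5.11e-09 in DESeq2. With the animal as a block, the adjusted p was 0.0512 in edgeR and 1.10e-16 in DESeq2. The edgeR call was also lost on the 8 young libraries alone (adjusted p = 0.0976) and without O1, O2 or O4 (adjusted p between 0.0534 and 0.0879). In the old sheep the gene was also lower in NPC, by a log2 fold change of -3.28 (SE 0.36, edgeR adjusted p = 0.00263).

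ENSOARG00020001990 was the second gene higher in AFC. It measured 4.12, 4.54, 7.54 and 10.0 CPM in NPC of Y1 to Y4, and 34.6, 42.8, 21.0 and 27.3 CPM in AFC. The groups did not overlap. The gap within a lamb was -3.06 and -3.22 on the log2 scale in Y1 and Y2, and -1.47 and -1.45 in Y3 and Y4. The means were 6.55 ± 2.76 CPM in NPC and 31.4 ± 9.39 CPM in AFC (SD, n = 4), a log2 fold change of -2.27 (SE 0.33). The adjusted p was 0.0415 in edgeR, 0.168 in edgeR with the block, 1.70e-08 in DESeq2 and 3.55e-07 in DESeq2 with the block. On the 8 young libraries alone the edgeR adjusted p was 0.119, and without O1, O2 or O4 it lay between 0.0534 and 0.0879. The old sheep gave a log2 fold change of -1.74 (SE 0.32, edgeR adjusted p = 0.0166).

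ENSOARG00020005846 measured 8.18, 5.57, 7.25 and 7.45 CPM in NPC of Y1 to Y4 and 1.75, 2.42, 1.86 and 0.895 CPM in AFC. Every NPC library was more than 2-fold above the AFC library of its lamb, and the smallest gap was in Y2. The means were 7.11 ± 1.10 CPM and 1.73 ± 0.63 CPM (SD, n = 4). The log2 fold change of 2.04 (SE 0.34) did not pass edgeR (adjusted p = 0.0822, and 0.168 with the block), but it passed limma-voom (adjusted p = 0.0335) and DESeq2 (adjusted p = 2.09e-06). In old sheep the log2 fold change was 1.90 (SE 0.34) and passed edgeR (adjusted p = 0.0161).

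ENSOARG00020009778 had the largest gap of the 4 genes and the least even levels. It measured 5.46, 3.36, 26.1 and 3.60 CPM in NPC of Y1 to Y4 and 0.351, 0.391, 0.0315 and 0.102 CPM in AFC. The groups did not overlap, NPC of Y3 was the highest library, and AFC of Y3, with 1 read against 1328 reads in NPC of that lamb, was the lowest. The means were 9.62 ± 11.0 CPM and 0.219 ± 0.179 CPM (SD, n = 4). The log2 fold change was 5.42 (SE 0.87), and it was 3.88 without Y3. The adjusted p was 0.0822 in edgeR, 0.212 in edgeR with the block, 0.273 in limma-voom and 4.71e-09 in DESeq2. NPC of the old sheep ranged from 0.702 to 3.40 CPM, and the log2 fold change there was 1.84 (SE 0.75, edgeR adjusted p = 0.220). The difference between the ages in this fold change had an unadjusted edgeR p of 0.00517 and an edgeR adjusted p of 0.999. The choice of this gene by its p in the lambs favours a larger fold change there, so that the unadjusted p is not a fair comparison of the ages.

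With any of the lambs left out, none of the 4 genes passed edgeR, the 2 called with all lambs included, while each kept its direction. The highest adjusted p from edgeR with a lamb left out was 0.329 for ENSOARG00020025065, 0.244 for ENSOARG00020001990, 0.545 for ENSOARG00020005846 and 0.441 for ENSOARG00020009778.

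**Figure D3:**
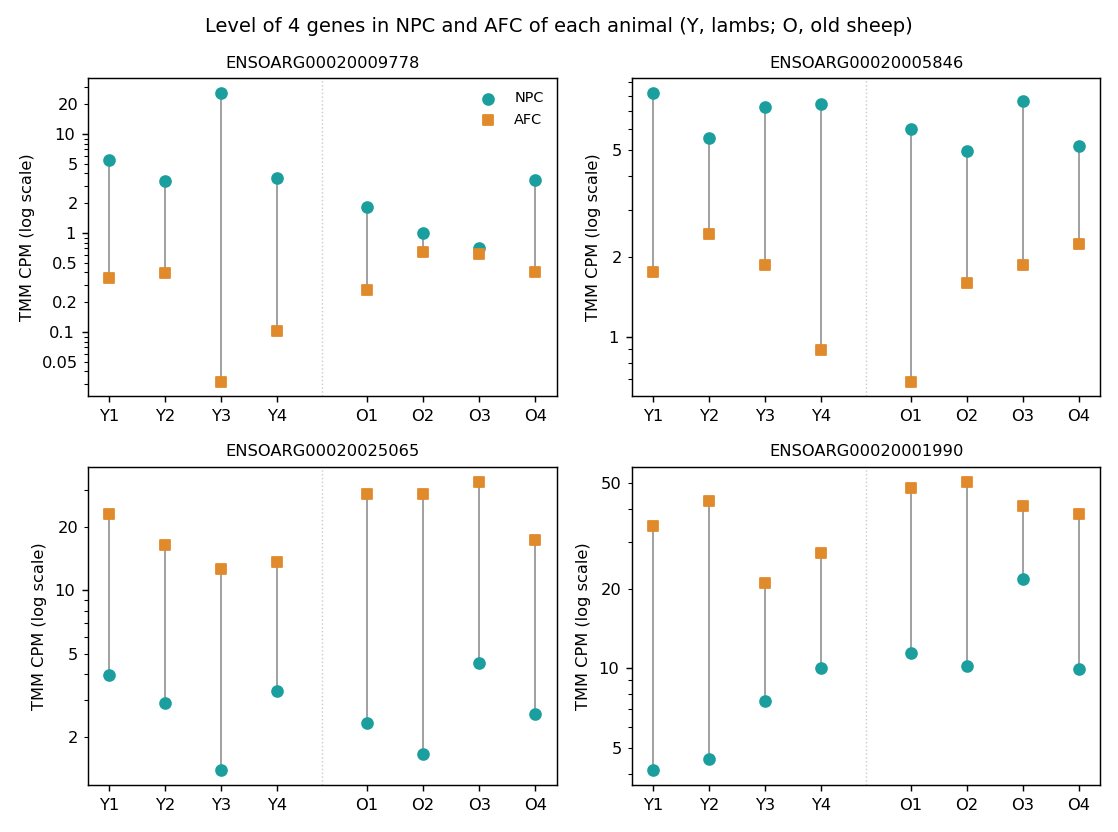
Level (TMM CPM, log axis) of the 4 genes in NPC (circles) and AFC (squares) of each lamb (Y1 to Y4) and each old sheep (O1 to O4), with a line joining both cultures of an animal. In the lambs, NPC and AFC do not overlap for any of the 4 genes. In the old sheep, ENSOARG00020009778 reached at most 3.40 CPM in NPC, against 26.1 CPM in NPC of Y3 and between 3.36 and 5.46 CPM in NPC of the other lambs.

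Modules of co-expressed genes tied to tissue (Yellow, Magenta, Tan and Brown) were listed with 30 leading genes each. Of these, 2 genes of Yellow, 1 of Magenta and 0 of Tan and Brown were listed by an identifier of the count table, and the others were not analysed here. The modules were derived in the study from the same libraries, so that the genes are not independent evidence of a direction. None of the 3 passed edgeR in the lambs. ENSOARG00020017480 measured 0.162, 1.79, 0.353 and 0.641 CPM in NPC of Y1 to Y4 and 2.45, 1.08, 2.27 and 3.05 CPM in AFC, so that Y2 alone had more in NPC. Its log2 fold change was -1.58 (SE 0.57, edgeR adjusted p = 0.624), and in the old sheep it was -4.10 (SE 0.62, edgeR adjusted p = 0.00745). Without Y2 its log2 fold change in the lambs was -2.78 (edgeR adjusted p = 0.153), and without Y1 it was -1.19. DESeq2 with the animal as a block called it in the lambs (adjusted p = 0.0417). ENSOARG00020039000 had a log2 fold change of -0.60 (SE 0.23, edgeR adjusted p = 0.699), and NPC minus AFC was 0.00562, -0.208, -1.01 and -1.04 in the 4 lambs. ENSOARG00020031152 had a log2 fold change of -0.03 (SE 0.17, edgeR adjusted p = 0.996), with means of 16.2 ± 3.56 CPM in NPC and 16.6 ± 2.33 CPM in AFC (SD, n = 4).

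The third question was the difference within each lamb, taken per gene as log2 CPM of NPC minus log2 CPM of AFC. The median size of this difference over the genes tested was 0.215 in Y1, 0.368 in Y2, 0.244 in Y3 and 0.310 in Y4. Genes that differed by more than 2-fold within a lamb numbered 1312 in Y1, 2574 in Y2, 1620 in Y3 and 1937 in Y4. In each lamb more of them were higher in NPC than in AFC, with 720 against 592 in Y1, 1424 against 1150 in Y2, 982 against 638 in Y3 and 1170 against 767 in Y4. In the old sheep the medians were 0.226, 0.520, 0.336 and 0.273. The mean over animals was 0.284 ± 0.0686 in lambs and 0.339 ± 0.129 in old sheep (SD, n = 4), a difference that did not pass an exact permutation test over 70 relabellings (two-sided, p = 0.543). O2 was the highest of the 8 animals, and without it the difference between the ages was 0.00603, with the lambs higher.

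Most of the large differences of a lamb were not shared by all lambs. The sign was the same in all 4 lambs for 2576 genes (16.6% of those tested), with NPC higher for 1280 and AFC higher for 1296. Every NPC library was above every AFC library for 325 genes (2.09%), and every AFC library was above every NPC library for 372 genes (2.4%). The difference was over 2-fold in the same direction in each of the 4 lambs for 98 genes (0.631%), with NPC higher for 59 of them and AFC higher for 39. In old sheep, the same rule gave 299 genes (1.93%). With 4 lambs, a sign flip test of a single gene cannot give a two-sided p below 0.125 and an exact permutation test of 4 against 4 libraries none below 0.0286, so these counts are descriptions. With no tissue difference, a gene would still share its sign in all 4 lambs with a chance of 0.125. Its groups would not overlap with a chance of 0.0286 if the libraries were exchangeable, and 4.49% of the genes tested had such groups.

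The genes that separated the groups were spread over all levels of expression, while those with large differences were mostly weakly expressed. The 697 genes whose groups did not overlap had a median of 15.5 CPM, beside 14.2 CPM for all genes tested, and 25.3% of them were among the top 25% of genes by level. The 98 genes over 2-fold in every lamb had a median of 1.16 CPM, 60 of them were among the lowest 25% and 2 among the top 25%, and together they held 0.0734% of the CPM of the young libraries. The median size of the mean log2 difference was 0.313 in the lowest 25% of genes and 0.105 in the top 25%, and the part of counting error, which is largest at low levels, was not tested. The share of genes whose groups did not overlap was 4.64% in the lowest 25% of genes and 4.54% in the top 25%. Of the 113 genes called by DESeq2, 110 had the same sign in all 4 lambs, 105 had groups that did not overlap and 52 were over 2-fold in each lamb. Of the 238 genes called by DESeq2 with the block, 225 had the same sign in all lambs and 136 had groups that did not overlap. Over all genes tested, 16.6% had the same sign, 4.49% had groups that did not overlap and 0.631% were over 2-fold in each lamb. Both DESeq2 lists were chosen with these same young libraries, so that the likeness of the lambs follows in part from the choice.

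At the ends of the range of expression, few genes were specific to a culture. No gene had at least 10 reads in each AFC library and 0 in all NPC libraries, and 2 genes had at least 10 reads in each NPC library and 0 in all AFC libraries. The 10 genes with the highest mean level held 19.1% of the CPM of the young libraries. Of these 10, 3 had the same sign in every lamb and 0 had groups that did not overlap, beside 16.6% and 4.49% of all genes tested, so that 10 genes are too few to stand apart from the rest. Their mean log2 differences lay between -0.566 and 1.32, and the largest difference in a single lamb was 3.45 in size.

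Lambs were then compared by their differences across genes. Pearson's r between the within-lamb differences of 2 lambs over 15521 genes was 0.599 for Y3 and Y4 and 0.321 for Y1 and Y2. It was 0.0831 for Y1 and Y3, 0.103 for Y1 and Y4, -0.049 for Y2 and Y3 and -0.195 for Y2 and Y4. Genes are not independent replicates, and the 2 lambs of a pair share no library but share the normalisation and the set of genes. Each lamb enters several of the 6 pairs, so that the values of r depend on each other. On the 12602 genes with a mean count of at least 50, r was 0.719 for Y3 and Y4 and 0.371 for Y1 and Y2. For the other pairs it was 0.0201 (Y1 and Y3), 0.0737 (Y1 and Y4), -0.131 (Y2 and Y3) and -0.301 (Y2 and Y4). The order of the 6 pairs was the same on these genes, and the pairs lay further apart.

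Genes with a large difference in both lambs of a pair were then counted. Between Y3 and Y4, 937 genes were over 2-fold in both lambs, and 866 of them (92.4%) went the same way. Between Y1 and Y2 there were 650 such genes, and 486 (74.8%) went the same way. This share was 62.7% of 498 genes for Y1 and Y3 and 67.5% of 553 genes for Y1 and Y4, not far below that of Y1 and Y2, and it was 44.4% of 798 genes for Y2 and Y3. Between Y2 and Y4 there were 956, of which 329 went the same way and 627 the opposite way. A gene with a large difference in both Y2 and Y4 was therefore more often higher in the nucleus culture of one lamb and in the annulus culture of the other. Y3 and Y4 were also the lambs whose libraries differed most in size, with 50874478 counts in NPC and 30391717 in AFC of Y3 and with 28782526 in NPC and 48346914 in AFC of Y4. With every library thinned to 28782526 counts, an alternative added after the data were seen, r was 0.592 for Y3 and Y4, 0.316 for Y1 and Y2 and between -0.203 and 0.0854 for the other pairs. Dates of culture, extraction or sequencing were not available for grouping the lambs, and the part of such batches in their likeness was not tested.

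**Figure D4:**
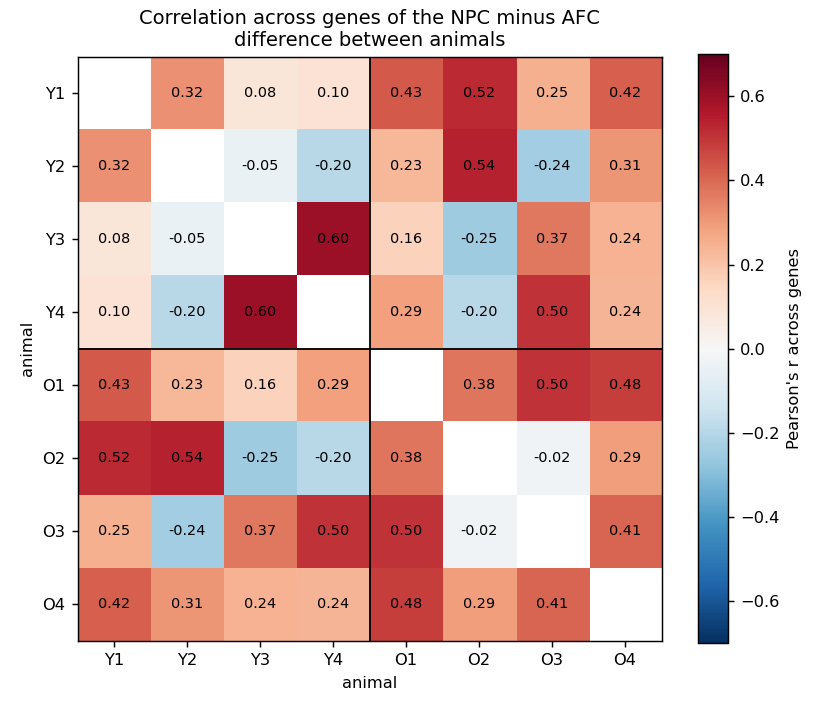
Pearson's r across 15521 genes between the NPC minus AFC differences of each pair of animals, with the 4 lambs (Y) before the 4 old sheep (O). Lambs Y3 and Y4 have the highest value (0.599), Y2 and Y4 have the lowest among lambs (-0.195), and between a lamb and an old sheep r ranged from -0.247 to 0.54.

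The old sheep gave 4 further pairs of NPC and AFC. Between an old sheep and a lamb, r ranged from -0.247 (Y3 and O2) to 0.54 (Y2 and O2), with a mean of 0.239 over 16 pairs. Among old sheep the mean was 0.34 over 6 pairs, and among lambs it was 0.144 over 6 pairs. The mean among lambs rested on single animals, with 0.262 without Y2 and 0.0761 without Y3, and the difference between the ages was not tested. Y2 and O2, the lamb and the old sheep with the largest differences, had the highest r across the ages, and 1451 of 1635 genes over 2-fold in both (88.7%) went the same way. By that share Y1 and O2 came first, with 735 of 813 genes (90.4%). O2 ran against Y3 and Y4, with r of -0.247 and -0.196, and O3 ran against Y2, with r of -0.242.

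Genes that separated NPC from AFC in the lambs mostly kept their direction in the old sheep. Of the 325 genes whose young NPC were all above young AFC, 290 (89.2%) had a higher mean in old NPC, against 63.3% of all genes higher on average in young NPC. In 83 of the 325 (25.5%), every old NPC library was above every old AFC library, against 6.44% of the genes higher on average in young NPC and 3.82% of all genes tested, and in 1 the old groups were separated the opposite way. Of the 372 genes whose young AFC were all above young NPC, 316 (84.9%) had a higher mean in old AFC, against 66.5% of all genes higher on average in young AFC. In 79 of the 372 (21.2%), the old groups did not overlap in the same direction, against 6.87% of the genes higher on average in young AFC and 3.97% of all genes tested, and in 0 in the opposite one. By edgeR in the old sheep, 56 of the 325 (17.2%) were called higher in NPC, against 2.26% of the genes higher on average in young NPC and 1.22% of all genes. Likewise 51 of the 372 (13.7%) were called higher in AFC, against 2.05% of the genes higher on average in young AFC and 1.04% of all genes. With the animal as a block, edgeR called 55 of the 325 (16.9%) in the old sheep, against 3.0% of the genes higher on average in young NPC and 1.67% of all genes. It called 40 of the 372 (10.8%), against 2.41% of the genes higher on average in young AFC and 1.28% of all genes. Both edgeR fits took the spread from all 16 libraries, so that a small spread in the lambs favours a call in the old sheep. The edgeR shares are therefore not independent of the choice of the genes in the lambs.

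Genes with larger differences in the lambs were counted in the same way, in lists that share genes with those above. Of the 59 genes over 2-fold higher in NPC in all 4 lambs, 18 (30.5%) had old groups that did not overlap in the same direction, and of the 39 higher in AFC it was 17 (43.6%). The 113 DESeq2 calls came from a fit of all 16 libraries, in which a small spread in the old sheep favours a call. DESeq2 was therefore also run on the 8 young libraries alone, an alternative added after the data were seen, and it called 164 of 14711 genes (1.11%), 95 with more in NPC and 69 with more in AFC. Of the 95, 31 (32.6%) had old groups that did not overlap in the same direction, and of the 69 it was 28 (40.6%). For the 62 and 51 calls of the fit on all libraries, these shares were 31 (50%) and 30 (58.8%). None of the genes in these lists had old groups separated in the opposite direction. The median log2 difference of the 95 genes was 1.61 in lambs and 1.07 in old sheep, and that of the 69 genes was -1.25 and -1.06. Since the genes were chosen by their values in the lambs, these sizes are not a comparison of the ages.

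**Figure D5:**
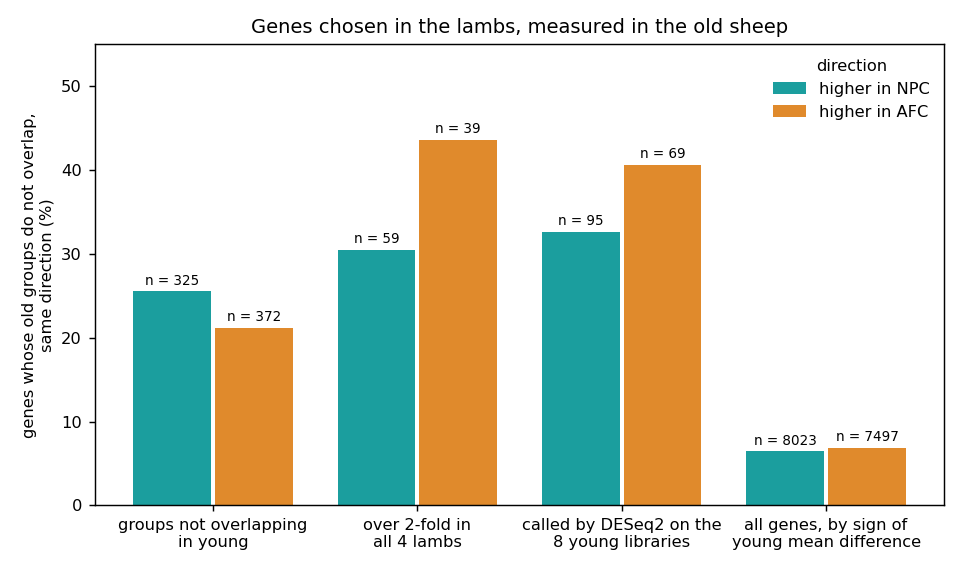
Percentage of genes, chosen by their values in the lambs, whose 4 old NPC and 4 old AFC libraries did not overlap in the same direction, with the number of genes in each list above its bar. The bars stand at 25.5% and 21.2% for genes that did not overlap in the lambs, at 30.5% and 43.6% for genes over 2-fold in all 4 lambs and at 32.6% and 40.6% for DESeq2 calls from the 8 young libraries, against 6.44% and 6.87% of all genes divided by the sign of their mean difference in the lambs.

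The last comparison asked whether the difference between NPC and AFC itself changed with age. For the interaction of age and tissue, edgeR called 0 of 15521 genes (0%), with 683 at an unadjusted p under 0.05, and limma-voom also called 0, with 630. DESeq2 called 5 genes (0.0323%) and DESeq2 with the animal as a block called 69 (0.445%). In the old sheep edgeR called 351 genes between NPC and AFC, 189 higher in NPC and 162 higher in AFC, and 458 with the block, against 2 and 0 in the lambs, but these counts do not test the difference between the ages.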

How the data were processed

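The series holds 16 RNA-seq libraries of cultured disc cells at passage 1. Libraries were made with a stranded mRNA kit and reads were aligned by STAR against the Rambouillet assembly ARS-UI_Ramb_v2.0 (Ensembl release 111). The authors deposited raw read counts per gene, unfiltered. The submitters' processing notes name FastQC 0.11.8, fastp, STAR 2.7.10b and HTSeq 2.0.3, without their roles. The strand setting of the counting and its treatment of reads shared by similar or overlapping genes are likewise not given, so counts of such genes are less certain.

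All 16 columns were assigned by their labels. The main test was the quasi-likelihood test of edgeR 4.0.16, run in R 4.3.3, and limma 3.58.1 and DESeq2 1.42.0 served as alternatives. After filterByExpr and TMM normalisation, the model held 4 group means, and NPC minus AFC in the lambs was the contrast. P-values were Benjamini-Hochberg adjusted over all genes tested, with a threshold of 0.05. The SE is the fold change on the log2 scale divided by the square root of F. In DESeq2, 20 genes had no adjusted p and stayed out of its counts. Differences within animals, distances and components used log2 CPM with a prior count of 2. The exact permutation tests enumerated all relabellings. The steps were tested on simulated counts.

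NPC and AFC of an animal were paired by the animal identifier in the labels. Across genes, both cultures of a lamb deviated from their group means with a correlation of 0.409 in Y1, -0.0253 in Y2, 0.44 in Y3 and 0.182 in Y4. Between young libraries of a group the chi-square per degree of freedom was at least 52.3, and none was taken as a repeat of another.

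The comparison, the gene rule and the lists were chosen with earlier results of these data known. Genes named were the 2 with the smallest p in each direction and the genes of the tissue modules listed by identifier. The symbol table used here, made for ARS-UI_Ramb_v3.0, matched 0 identifiers, so marker lists, gene sets, coordinates and sequences were not analysed here. Alternatives were DESeq2, limma-voom, RLE, other filters and prior counts, the replicate block, the young libraries alone, an adjusted p under 0.1 and leaving out each animal. Added after the data were seen were DESeq2 on the 8 young libraries, the block for the old sheep in the lists of lamb genes, and thinning for the correlations.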

Additional observations from a re-analysis of the deposited data

Results flagged for a closer look

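In 42 groups of 4 libraries, each library was checked for a distance from the other 3 beyond Dixon's 95% critical value, and 3 groups held such a library. Chance gives about 1 in 20 groups. ENSOARG00020009778 in young NPC reached 26.1 CPM in Y3, while the other lambs had between 3.36 and 5.46 CPM. The third principal component of the young libraries, with 17.7% of the variance, was -28.1 in NPC of Y4, while NPC of the other lambs lay between -2.5 and 2.42. NPC of Y4 was also the library with the fewest counts (28782526), and the part of depth in this value was not tested. ENSOARG00020001990 in old NPC measured 21.8 CPM in O3, while the other old sheep had between 9.94 and 11.4 CPM.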

How the results depend on the processing

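The number of genes called between young NPC and AFC was 2 in edgeR and moved with the tool and the model, to 113 with DESeq2, 164 with DESeq2 on the 8 young libraries (added after the data were seen), 238 with DESeq2 and the animal as a replicate block, 5 with limma-voom, 0 with edgeR and the block, 0 with the block on the 8 young libraries alone, and 6 at an adjusted p under 0.1. It was 0 without any one of the lambs and ranged from 0 to 3 without an old sheep, with 0 without O2 or O4. The 3 genes called without O1 and the 2 called by edgeR on the 8 young libraries were other genes (0 shared), and the 2 without O3 were the same genes. The cause was not tested. The interaction rose from 0 in edgeR to 5 with DESeq2 and 69 with DESeq2 and the block. The pairing came from the labels. In the old sheep, the block moved the calls from 351 to 458 in edgeR and from 1117 to 1436 in DESeq2. With a mean count of at least 50, 50 genes were over 2-fold in all lambs, each of them among the 98. With a lamb left out, fewer lambs have to share a direction and the counts rose by construction, to between 3807 and 4651 genes of the same sign, between 1352 and 2010 whose groups did not overlap and between 140 and 203 over 2-fold. The difference in size between the ages ranged from -0.0921 to 0.00603 with an animal left out, and it turned only without O2 (exact permutation test, p = 0.943). The likeness of both cultures of a lamb, -0.0961 as same minus different lambs, reached the smallest possible p with a prior count of 0.5 (-0.1125) and on the 500 most variable genes (-0.4974), with an exact permutation p of 0.0417 in each, and was -0.0649 with a mean count of at least 50 (exact permutation p = 0.167). The mean correlation between lambs ranged from 0.0761 to 0.262 with a lamb left out and was 0.134 with all libraries thinned to the smallest. Over 17 alternatives for each of the 7 genes given by identifier, 91 of 119 results kept direction and side of the threshold, 7 passed it, 20 lost it, and 1 turned, the log2 fold change of ENSOARG00020031152, which ranged from -0.0787 (without Y1) to 0.0762 (without Y2) with a lamb left out. What limits the number of calls was not tested.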
